A study of Mus musculus with 11 samples.

Results

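The genes described here encode soluble hydrolases of the lysosome and proteins of its membrane. They were taken by name, with earlier results of these data known, leaving out cathepsins B to Z and the proton pump. They comprise lysosomal glycosidases, sulfatases, lipases and other hydrolases, the activators and lipid carriers that work with them, and membrane proteins. All 36 were found, 1 row each, among the 25121 genes of the deposited table. RNA came from mouse bone marrow-derived macrophages kept in a Transwell insert over primary renal proximal tubular epithelial cells. Every culture had TGF-β1, a profibrotic cytokine, at 5 ng/mL for 72 h, and the hemin group also had hemin, the chloride of oxidised heme, at 10 µM. There were 6 libraries with TGF-β1 alone (replicates 1 to 6) and 5 with TGF-β1 and hemin (replicates 2 to 6), told apart by title prefix together with the conditions that the series design names. The comparison asks what hemin changes in these macrophages when TGF-β1 is present. The labels name neither age, sex nor strain of the animals. They also do not say if each library is its own animal or culture, so the p-values measure only how far these samples spread, which may reflect technical steps. Cultures without TGF-β1, and macrophages without epithelial cells, are not part of the comparison.

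The lysosome is the acid compartment in which macrophages break down what they engulf and what autophagy delivers. Its soluble enzymes are made in the endoplasmic reticulum, most are tagged with mannose 6-phosphate, and sorting receptors carry them to the lysosome. Each enzyme cleaves a particular bond of a sugar chain, lipid, protein or nucleic acid, and loss of 1 enzyme usually leads to a storage disease. The transcription factors TFEB, TFE3 and MITF bind E-box elements in the promoters of many of these genes. In macrophages lysosomal transcripts are among the abundant ones.

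Libraries held 65.5 to 71.5 M counts without hemin and 66.7 to 96.6 M in the hemin group. CPM below are counts scaled to library size after TMM correction for RNA composition, and levels of different genes are set side by side only as FPKM, which divides by transcript length. Hmox1, which encodes the heme-degrading enzyme heme oxygenase 1 and is a standard responder to hemin, went from 1528 ± 88.9 to 7480.5 ± 179 CPM (edgeR log2 fold change 2.29, SE 0.05, adjusted p = 7.82e-14), and no library crossed between the groups. The TMM factors lay between 0.994 and 1.06 with TGF-β1 alone and between 0.924 and 0.982 with hemin, and the ferritin genes Fth1 and Ftl1 took 2.84 to 3.43% and 4.79 to 5.62% of counts. The scaling therefore moves every hemin to control ratio, and since the changes described here are small, results that depend on it are given with the alternative. Every member was well covered, with at least 2127 reads in each library.

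Of the 36 lysosomal genes, 13 rose with hemin, 2 fell and 21 did not pass, so 15 changed, where 14.2% of all tested genes did. The test was edgeR's quasi-likelihood test with Benjamini-Hochberg adjustment over all 15132 tested genes at an adjusted p under 0.05. Over all tested genes, 8.43% were called higher and 5.75% lower, against 36.1% and 5.56% of the members. The share of rises stood above the background and the share of falls close to it. Among the 5970 tested genes at least as abundant per length as the lowest member, 14.7% were higher and 7.4% lower. The rises were small, from 13.3% for Tpp1 to 31.2% for Gla, and the falls were 12.6% for Scarb2 and 14.5% for Arsb. Positive fold changes were seen for 30 of the 36 members, and the median log2 fold change, hemin over TGF-β1 alone, was 0.12 against 0.00 over all tested genes. With library totals in place of TMM factors the median of all tested genes shifted by -0.11, to -0.12, and that of the members moved with it to 0.01. The distance between both medians was 0.12 with either scaling, and 0.098 with limma on log2(FPKM + 1), or 0.027 there without a filter on low values. Library totals in place of TMM factors gave 9 members called higher and 3 lower. Among all tested genes, library totals gave 735 higher (4.86%) and 2485 lower, against 1276 and 870 with TMM.

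**Figure D1:**
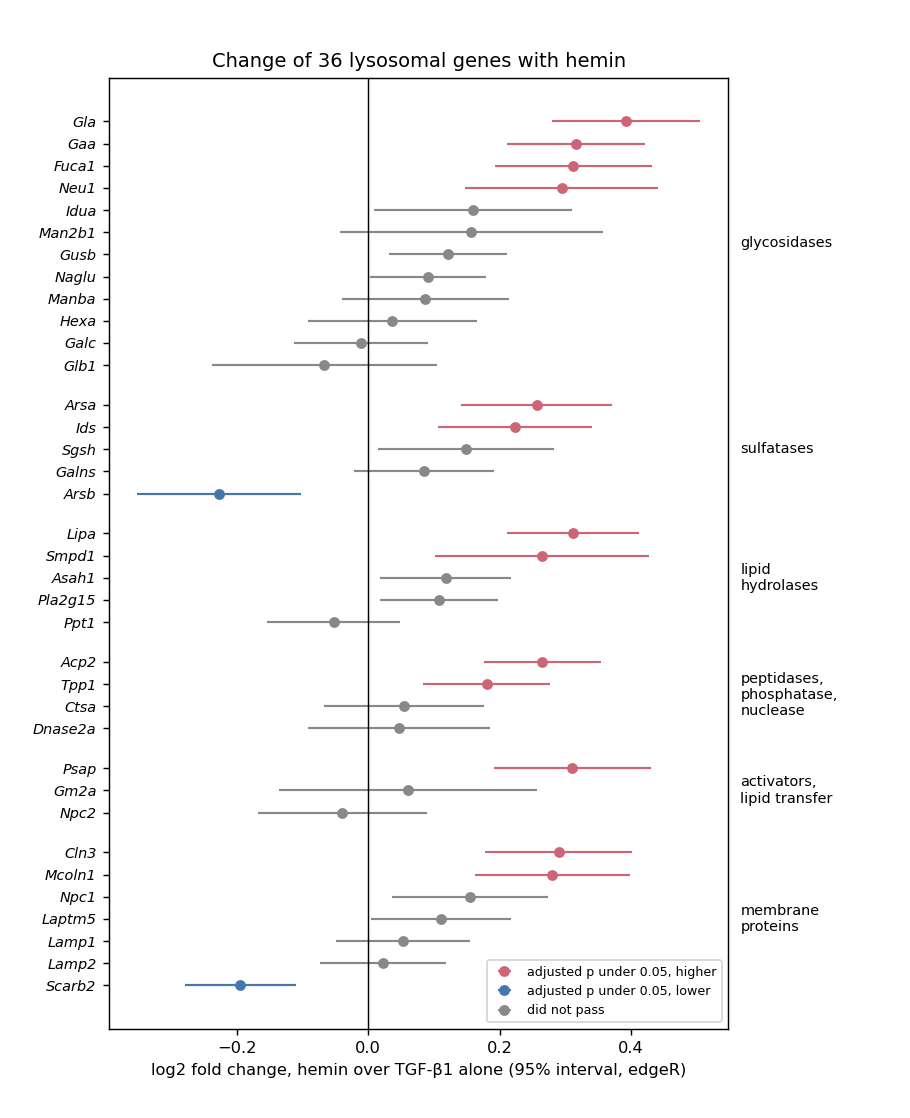
Log2 fold change (x axis, hemin over TGF-β1 alone) of the 36 lysosomal genes, grouped by role and ordered by size, with the edgeR estimate as a point and its 95% interval as a bar. The 13 genes that rose lie between 0.18 and 0.39, and Arsb and Scarb2 lie below 0.

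For all 15 called members the CPM of the groups did not overlap, 13 higher and 2 lower, and for the other 21 they did. Over all tested genes 10.2% had groups apart, 6.29% with the hemin libraries wholly above and 3.93% wholly below. In the deposited FPKM, which carry no TMM scaling, the groups stayed apart for 6 of these 15: Gla, Lipa, Cln3 and Mcoln1 on the higher side, and Arsb and Scarb2 on the lower (3.65% and 8.75% of all tested genes). In the map of single libraries the 13 genes that rose are red, and the 2 that fell blue, in each of the 5 hemin libraries. The median log2 ratio of the 36 members to their TGF-β1 mean was 0.08, 0.08, 0.18, 0.13 and 0.15 in hemin replicates 2 to 6, and lay between -0.09 (replicate 2) and 0.06 (replicate 4) in the TGF-β1 libraries. Hemin replicates 4, 5 and 6 each had 31 of 36 members above the TGF-β1 mean, and replicates 2 and 3 had 25 and 28. TGF-β1 replicates 1 to 6 had 21, 5, 25, 26, 19 and 16, so the groups overlapped on this count.

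**Figure D2:**
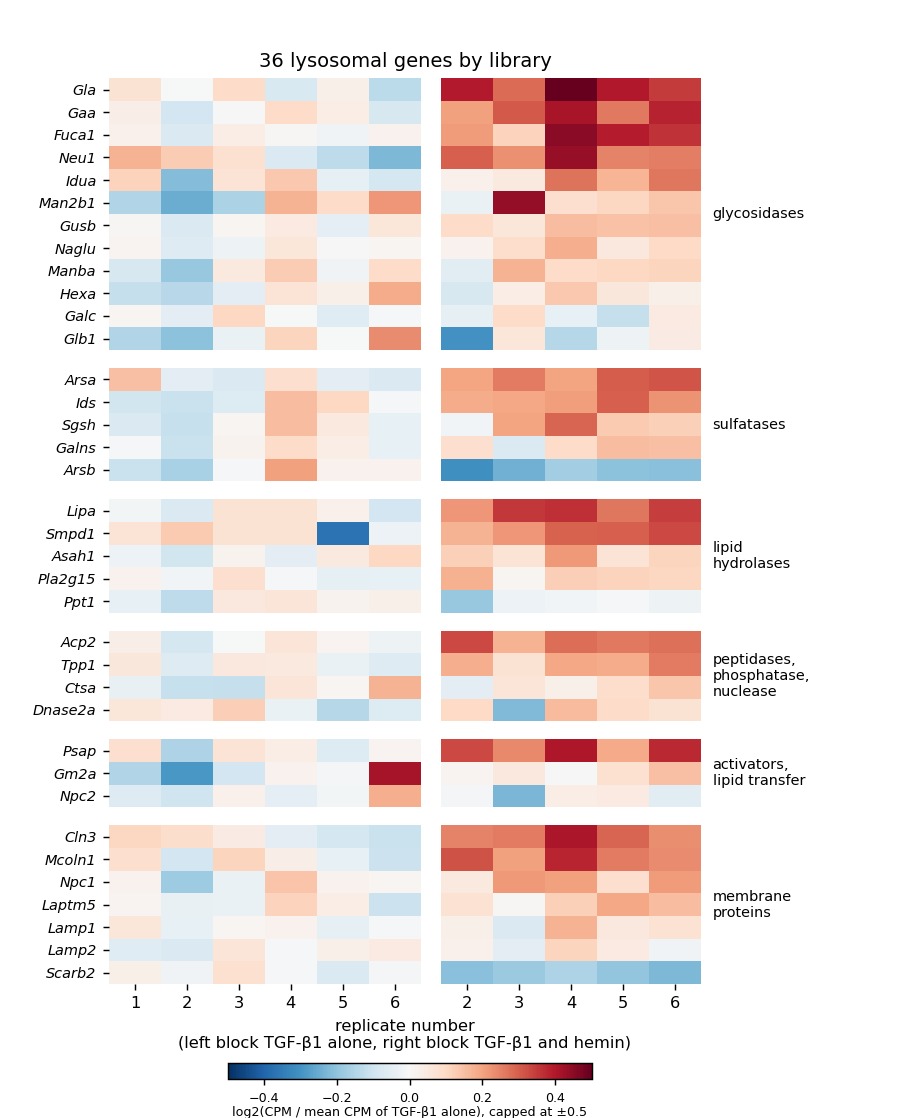
Log2 ratio of each library's CPM to the mean CPM of the 6 TGF-β1 libraries for the 36 lysosomal genes (rows) in 11 libraries (columns, by replicate number), with colours capped at ±0.5. The rows of Gla, Gaa, Fuca1 and Psap are red across the hemin libraries, and those of Arsb and Scarb2 are blue.

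**Figure D3:**
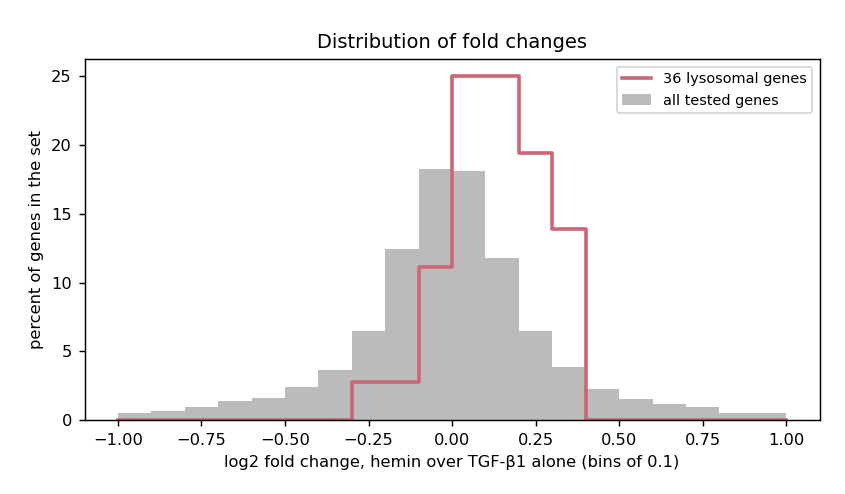
Share of genes (y axis, percent of the set) in bins of 0.1 of the log2 fold change (x axis, from -1 to 1) for all 15132 tested genes (grey) and the 36 lysosomal genes (line). The lysosomal genes lie between -0.23 and 0.39, and 12 of them lie above 0.2, while 4.61% of all tested genes lie outside the plotted range.

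As a description, the promoters of the members were searched for the core of the E-box that TFEB, TFE3 and MITF bind. RefSeq promoter windows, 250 bases before to 50 after a transcription start in build GRCm38.p6, which is not the build of the deposited table, were held for 33 of the 36 members (36 windows). Both strands were searched for CACGTG, for the longer forms TCACGTG and TCACGTGA, in which CACGTG is nested, and for TGACNNNGC, the core of the antioxidant response element that NRF2 and BACH1 bind. CACGTG was found in the windows of 10 of 33 members (30.3%), against 8.09% of all 27025 genes with a window and 12.9% of tested genes at least as abundant as the lowest member. TCACGTG was in the same 10 (abundant tested genes 7.98%), TCACGTGA in 4 (12.1%, abundant genes 2.69%) and TGACNNNGC in 8 (24.2%, abundant genes 17.6%). The 10 were split between members that rose (Gla, Gaa, Arsa, Cln3 and Mcoln1, of 13) and members that did not pass (Ctsa, Glb1, Lamp1, Naglu and Sgsh, of 18), and the windows of Arsb and Scarb2 held no CACGTG. A match describes the letters of a window and is not a bound site. The windows of Gla, Cln3 and Mcoln1 are shown because these genes rose and hold TCACGTGA, and that of Lamp1 because it holds the most matches, 4, and did not pass the test. The other gene with TCACGTGA was Ctsa, which did not pass. A Ctsa window, not shown, holds TCACGTGA 2 times, as many as that of Gla. Another Cln3 window, not shown, holds no CACGTG. Capitals mark CACGTG, and the last 50 bases begin at the start site.
Gla promoter, chrX:134600956-134601255, minus strand: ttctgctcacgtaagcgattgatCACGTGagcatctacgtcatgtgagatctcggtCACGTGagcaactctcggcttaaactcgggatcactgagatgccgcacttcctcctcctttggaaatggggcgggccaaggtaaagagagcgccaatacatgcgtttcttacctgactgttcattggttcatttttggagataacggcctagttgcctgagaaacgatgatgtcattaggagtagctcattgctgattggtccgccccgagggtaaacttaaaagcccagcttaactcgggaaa
Cln3 promoter, chr7:126583187-126583486, minus strand: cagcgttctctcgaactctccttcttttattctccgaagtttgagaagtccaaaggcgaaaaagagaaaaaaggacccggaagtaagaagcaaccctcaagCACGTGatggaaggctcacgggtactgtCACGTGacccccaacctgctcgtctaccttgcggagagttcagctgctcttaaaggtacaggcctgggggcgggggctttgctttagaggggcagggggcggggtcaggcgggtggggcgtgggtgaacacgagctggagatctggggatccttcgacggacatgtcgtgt
Mcoln1 promoter, chr8:3500269-3500568, plus strand: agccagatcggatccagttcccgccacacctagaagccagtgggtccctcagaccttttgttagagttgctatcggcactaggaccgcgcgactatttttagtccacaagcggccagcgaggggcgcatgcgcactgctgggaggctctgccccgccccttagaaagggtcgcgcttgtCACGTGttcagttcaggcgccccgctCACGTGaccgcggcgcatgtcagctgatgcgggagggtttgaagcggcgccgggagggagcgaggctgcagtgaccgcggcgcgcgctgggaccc
Lamp1 promoter, chr8:13158911-13159210, plus strand: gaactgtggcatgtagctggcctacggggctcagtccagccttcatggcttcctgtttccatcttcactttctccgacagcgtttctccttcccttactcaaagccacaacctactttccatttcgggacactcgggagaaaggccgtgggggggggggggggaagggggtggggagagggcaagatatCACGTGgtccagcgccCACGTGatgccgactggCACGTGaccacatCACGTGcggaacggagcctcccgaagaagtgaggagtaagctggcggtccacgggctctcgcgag
Counted from the start site, the matches begin at -227 and -194 in Gla, at -149 and -121 in Cln3, at -71 and -45 in Mcoln1, and at -61, -45, -28 and -15 in Lamp1. Each of the 4 windows carries several E-box cores.

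The members span a wide range of levels. Psap led with 2973 ± 227 FPKM with TGF-β1 alone and 3417 ± 201 FPKM with hemin, which placed it at rank 25 of all tested genes by mean FPKM. Laptm5 followed at 801 ± 54.5 FPKM with TGF-β1 alone and 802 ± 37.1 FPKM with hemin, and Lamp1 at 772 ± 31.9 FPKM with TGF-β1 alone and 742 ± 35.2 FPKM with hemin. These neighbours in the order, Laptm5 and Lamp1, overlapped in FPKM within both groups. The most abundant glycosidase was Hexa at 238 ± 26.3 FPKM with TGF-β1 alone and 226 ± 10.5 FPKM with hemin, and the lowest members were Mcoln1 and Galc, at a mean of 5.60 and 5.06 FPKM over all libraries. Summed, the 36 genes made up 2.27 ± 0.128% of the library in the TGF-β1 group and 2.39 ± 0.0721% in the hemin group. Psap made up 38.5 ± 1.14% and 41.9 ± 1.42% of that sum, and without Psap the members made up 1.39 ± 0.0707% and 1.39 ± 0.0322% of the library. As a share of unscaled counts, the sum without Psap thus had the same mean in both groups, while in TMM-scaled CPM it was 13433 ± 382 with TGF-β1 alone and 14493 ± 479 with hemin. In bulk RNA, fewer cells of a type and less RNA per cell cannot be told apart.

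**Figure D4:**
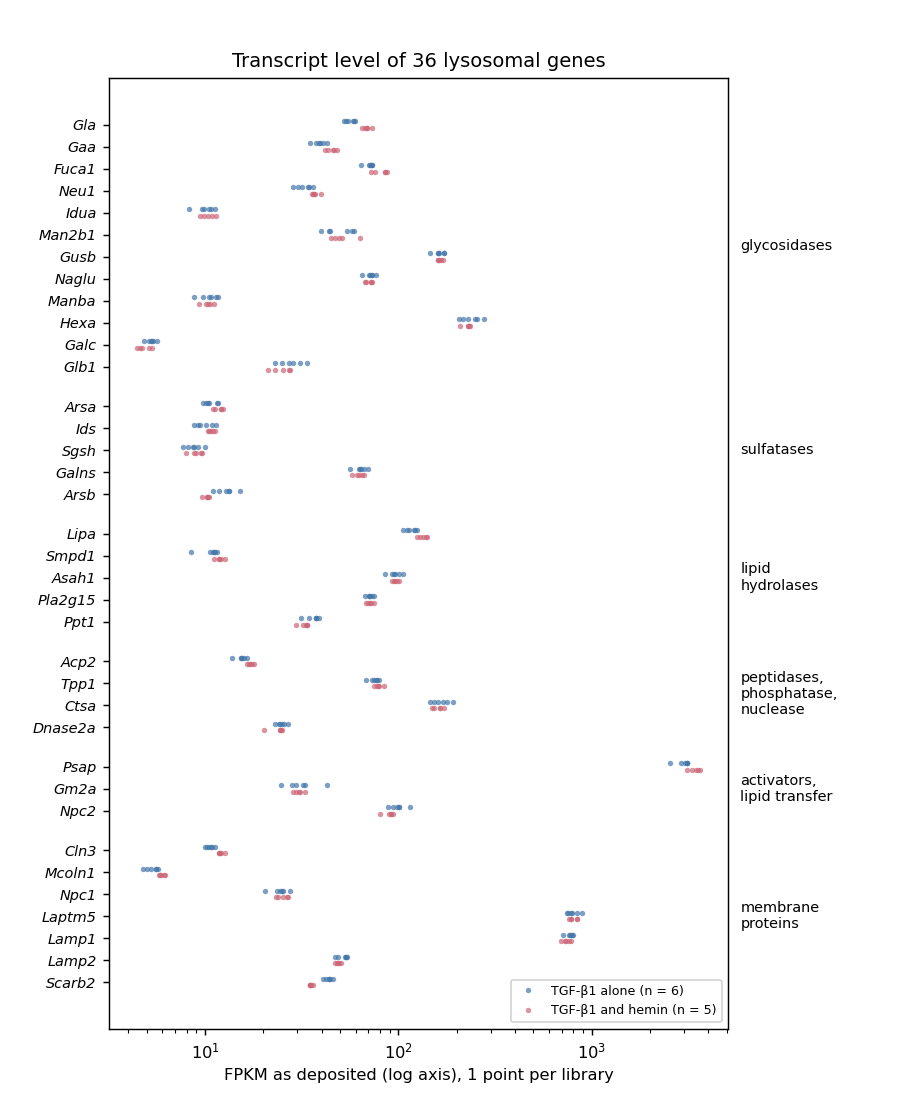
FPKM as deposited (x axis, log scale) of the 36 lysosomal genes, 1 point per library, for 6 TGF-β1 libraries and 5 hemin libraries. Psap lies at 2546 to 3638 FPKM, far to the right of the other members, and Galc and Mcoln1 lie near 5.

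Glycosidases cut the sugar chains of glycolipids, glycoproteins, glycosaminoglycans and glycogen, and 4 of the 12 rose while 8 did not pass. Gla (ENSMUSG00000031266, chromosome X, 133488898 to 133501874, minus strand in build GRCm39) encodes α-galactosidase A, which removes terminal galactose from globotriaosylceramide and is deficient in Fabry disease. Its 6 TGF-β1 libraries were at 174 at the lowest, 192 at the median and 203 at the highest CPM, and hemin replicates 2 to 6 were at 251, 232, 273, 251 and 242 CPM (log2 fold change 0.39, SE 0.05, adjusted p = 7.96e-05). Each hemin library lay above each TGF-β1 library, and the 31.2% rise was the largest among the 36. Gaa (ENSMUSG00000025579, chromosome 11, 119158713 to 119176280, plus strand), the glycogen-degrading acid α-glucosidase deficient in Pompe disease, was at 182 at the lowest, 196 at the median and 206 at the highest CPM with TGF-β1 alone and at 223, 239, 257, 232 and 253 CPM with hemin (log2 fold change 0.32, SE 0.05, adjusted p = 0.000324). Here too the lowest hemin library, replicate 2, stood above every TGF-β1 library.

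Fuca1 (ENSMUSG00000028673, chromosome 4, 135648046 to 135667622, plus strand), which encodes the α-fucosidase that trims fucose from glycoproteins, was at 228 at the lowest, 242 at the median and 246 at the highest CPM in the TGF-β1 libraries. The hemin libraries gave 277, 259.9, 328, 315 and 308 CPM (log2 fold change 0.31, SE 0.06, adjusted p = 0.00105). They spread more widely than the TGF-β1 libraries, with hemin replicate 3 closest to them. Neu1 (ENSMUSG00000007038, chromosome 17, 35150229 to 35154929, plus strand) encodes the lysosomal sialidase, which removes sialic acid. Its levels were 108 at the lowest, 127 at the median and 142 at the highest CPM with TGF-β1 alone and 155, 147, 170.4, 149.5 and 150.3 CPM with hemin (log2 fold change 0.29, SE 0.07, adjusted p = 0.00778). The gap between the groups was narrow, between TGF-β1 replicate 1 and hemin replicate 3.

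Among the 8 glycosidases that did not pass, Hexa, the α subunit of β-hexosaminidase and the enzyme lost in Tay-Sachs disease, was at 448 at the lowest, 488 at the median and 559.7 at the highest CPM with TGF-β1 alone and at 464, 505, 541, 512 and 502 CPM with hemin (log2 fold change 0.04, 95% interval -0.09 to 0.16). The hemin libraries fell within the range of the TGF-β1 libraries. Gusb, the β-glucuronidase often used as a lysosomal reporter, came nearest to the threshold, at 764 ± 27.8 CPM with TGF-β1 alone and 831 ± 24.2 CPM with hemin (log2 fold change 0.12, 95% interval 0.03 to 0.21, adjusted p = 0.0673). Man2b1, an α-mannosidase of glycoprotein breakdown, and Idua, the α-iduronidase of heparan and dermatan sulfate breakdown, had log2 fold changes of 0.16 and 0.16 with wider errors (SE 0.09 and 0.07). For Man2b1, hemin replicate 3 at 557 CPM stood well above the other hemin libraries, at 402 to 453 CPM. Glb1, the β-galactosidase used to stain senescent cells, was at 87.2 ± 10.0 and 83.3 ± 8.39 CPM (log2 fold change -0.07, 95% interval -0.24 to 0.10). The remaining members of the group, Naglu, Manba and Galc, had log2 fold changes between -0.01 and 0.09. Neu1, Ctsa and Glb1 encode proteins that form 1 complex in the lysosome, and their log2 fold changes were 0.29, 0.05 and -0.07. Differences between these genes were not tested.

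Sulfatases strip sulfate from glycosaminoglycans and sulfolipids, and of 5 members 2 rose, 1 fell and 2 did not pass. Arsa (ENSMUSG00000022620, chromosome 15, 89356679 to 89361628, minus strand) encodes arylsulfatase A, which acts on the myelin lipid sulfatide. Its TGF-β1 libraries were at 38.5 at the lowest, 39.0 at the median and 44.8 at the highest CPM and its hemin libraries at 46.4, 48.5, 46.6, 49.9 and 50.3 CPM (log2 fold change 0.26, SE 0.05, adjusted p = 0.00385). Ids (ENSMUSG00000035847, chromosome X, 69386675 to 69408690, minus strand), the iduronate sulfatase deficient in Hunter syndrome, was at 48.5 at the lowest, 51.1 at the median and 58.3 at the highest CPM without hemin and 59.6, 60.0, 60.5, 64.3 and 61.2 CPM with it (log2 fold change 0.22, SE 0.06, adjusted p = 0.0111). All 5 hemin libraries of both genes were above all 6 TGF-β1 libraries, but by little, and neither gene was called with library totals in place of TMM factors (log2 fold changes 0.14 and 0.11, adjusted p = 0.0979 and 0.258) or with limma on unscaled FPKM.

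Arsb (ENSMUSG00000042082, chromosome 13, 93908138 to 94079524, plus strand), which encodes arylsulfatase B, the enzyme that removes sulfate from dermatan and chondroitin sulfate, went the other way. The TGF-β1 libraries were at 72.0 at the lowest, 80.9 at the median and 92.7 at the highest CPM, and hemin replicates 2 to 6 were at 65.0, 68.1, 71.4, 69.7 and 69.5 CPM (log2 fold change -0.23, SE 0.06, adjusted p = 0.0148). Every hemin library was below every TGF-β1 library, with TGF-β1 replicate 2 and hemin replicate 4 nearly touching. TGF-β1 replicate 4 was the highest of its group. Galns, which removes sulfate from keratan sulfate and is the most abundant sulfatase of the list per length, was at 161 at the lowest, 175 at the median and 186 at the highest CPM with TGF-β1 alone and 185, 166, 186, 194 and 193 CPM with hemin (log2 fold change 0.09, 95% interval -0.02 to 0.19). Sgsh, the sulfamidase of heparan sulfate breakdown, averaged 39.8 ± 2.70 CPM with TGF-β1 alone and 44.2 ± 3.44 CPM with hemin (log2 fold change 0.15, 95% interval 0.01 to 0.28, adjusted p = 0.143). The groups overlapped for both.

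Lipid hydrolases free fatty acids, cholesterol and sphingosine from membranes and lipoproteins brought to the lysosome. Of 5 members 2 rose and 3 did not pass. Lipa (ENSMUSG00000024781, chromosome 19, 34469718 to 34504874, minus strand) encodes lysosomal acid lipase, which splits cholesteryl esters and triglycerides. Its TGF-β1 libraries were at 764 at the lowest, 818 at the median and 856 at the highest CPM, and the hemin libraries were at 950.3, 1041, 1049, 982 and 1035 CPM (log2 fold change 0.31, SE 0.05, adjusted p = 0.000233). The groups were clearly apart, and the call held in every alternative tried. Smpd1 (ENSMUSG00000037049, chromosome 7, 105203567 to 105207596, plus strand), the acid sphingomyelinase that makes ceramide, was at 28.6 at the lowest, 38.7 at the median and 40.5 at the highest CPM with TGF-β1 alone and 41.6, 43.0, 45.3, 45.4 and 46.4 CPM with hemin (log2 fold change 0.26, SE 0.08, adjusted p = 0.0287). TGF-β1 replicate 5 was the library at 28.6 CPM, and the other 5 lay between 36.1 and 40.5 CPM. Without that library the log2 fold change was 0.20 (adjusted p = 0.0226). The Smpd1 call was lost on leaving out TGF-β1 replicate 6 or hemin replicate 4, 5 or 6, where the adjusted p lay between 0.0542 and 0.0734 and the log2 fold change between 0.25 and 0.26. It was also lost without the filter on low counts (adjusted p = 0.0524), with library totals (0.156) and with limma on unscaled FPKM (0.115 to 0.243), and Smpd1 was the least stable call among the 15, lost in 11 of 23 alternatives.

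Asah1, the acid ceramidase, averaged 337 ± 17.1 CPM with TGF-β1 alone and 366 ± 15.7 CPM with hemin (log2 fold change 0.12, 95% interval 0.02 to 0.22, adjusted p = 0.115). Ppt1, a thioesterase that removes palmitate from proteins, was at 137 ± 6.78 and 133 ± 6.75 CPM (log2 fold change -0.05, 95% interval -0.15 to 0.05). It was called lower with library totals in place of TMM factors (log2 fold change -0.17). Pla2g15, a lysosomal phospholipase, stood at 223 ± 7.53 and 239.8 ± 9.91 CPM and did not pass. Of the cholesterol pathway, Lipa alone rose, while Npc2 and Npc1, the soluble and the membrane protein that hand cholesterol out of the lysosome, did not pass.

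The peptidase Tpp1, the acid phosphatase Acp2, the nuclease Dnase2a and cathepsin A (Ctsa) form a mixed group of 4, in which Acp2 and Tpp1 rose and Ctsa and Dnase2a did not pass. Acp2 (ENSMUSG00000002103, chromosome 2, 91033230 to 91044443, plus strand) encodes lysosomal acid phosphatase, and its TGF-β1 libraries were at 77.6 at the lowest, 82.9 at the median and 86.2 at the highest CPM, the hemin libraries at 104, 92.9, 100.2, 99.1 and 99.8 CPM (log2 fold change 0.27, SE 0.04, adjusted p = 0.000358). No library crossed the gap between the groups. Tpp1 (ENSMUSG00000030894, chromosome 7, 105394018 to 105401442, minus strand) encodes tripeptidyl peptidase 1, deficient in a form of neuronal ceroid lipofuscinosis. It was at 383 at the lowest, 404 at the median and 418 at the highest CPM with TGF-β1 alone and 455, 422, 459.6, 457 and 480.5 CPM with hemin (log2 fold change 0.18, SE 0.05, adjusted p = 0.0126). This was the smallest rise called, it did not pass with library totals in place of TMM factors (log2 fold change 0.07, adjusted p = 0.347) or with limma on unscaled FPKM (0.07, adjusted p = 0.261 to 0.404), and hemin replicate 3 lay closest to the TGF-β1 libraries. Ctsa, which protects the sialidase and the β-galactosidase in their complex, was at 750.2 at the lowest, 807 at the median and 919 at the highest CPM and, with hemin, at 784, 851, 830.0, 867 and 895 CPM (log2 fold change 0.05, 95% interval -0.07 to 0.18). Its hemin libraries lay within the range of the TGF-β1 libraries. Dnase2a, which digests engulfed DNA, was at 138 ± 9.23 and 143 ± 13.8 CPM.

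Activators and lipid transfer proteins lift lipids out of membranes for the hydrolases. Psap (ENSMUSG00000004207, chromosome 10, 60113449 to 60138376, plus strand) encodes prosaposin, the precursor of saposins A to D, which help the enzymes of sphingolipid breakdown. Its TGF-β1 libraries were at 7580.4 at the lowest, 8581 at the median and 8945 at the highest CPM, and hemin replicates 2 to 6 were at 10594, 9944, 11159.7, 9613 and 10947 CPM (log2 fold change 0.31, SE 0.06, adjusted p = 0.00110). All hemin libraries exceeded all TGF-β1 libraries in CPM, and TGF-β1 replicate 2 was the lowest. In deposited FPKM the highest TGF-β1 library, at 3132, just exceeded the lowest hemin library, at 3123. Gm2a, the activator of β-hexosaminidase, and Npc2, the soluble cholesterol carrier, did not pass, at 135 ± 24.0 and 141 ± 5.77 CPM for Gm2a and 559 ± 40.3 and 544 ± 40.7 CPM for Npc2. Gm2a varied widely among the TGF-β1 libraries, with replicate 6 at 180 CPM and replicate 2 at 110.3 CPM.

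Membrane proteins of the lysosome coat its inner face, carry cargo or conduct ions, and of 7 members 2 rose, 1 fell and 4 did not pass. Cln3 (ENSMUSG00000030720, chromosome 7, 126170379 to 126184989, minus strand) encodes the membrane protein lost in juvenile neuronal ceroid lipofuscinosis. It was at 59.0 at the lowest, 63.5 at the median and 68.7 at the highest CPM with TGF-β1 alone and 75.8, 76.3, 84.7, 78.0 and 74.8 CPM with hemin (log2 fold change 0.29, SE 0.05, adjusted p = 0.00111). Cln3 overlaps Apobr, on the opposite strand, over 876 bases in the deposited table, and the strand setting of the counting is not given, so reads of both may be mixed there. Apobr itself was at 109 ± 4.49 and 109.7 ± 2.36 CPM (log2 fold change 0.01). Mcoln1 (ENSMUSG00000004567, chromosome 8, 3550457 to 3565232, plus strand) encodes TRPML1, the calcium channel of the lysosomal membrane. Its TGF-β1 libraries were at 38.5 at the lowest, 41.4 at the median and 44.8 at the highest CPM and its hemin libraries at 51.8, 47.8, 54.0, 49.7 and 48.9 CPM (log2 fold change 0.28, SE 0.06, adjusted p = 0.00219). Both genes stayed apart between groups in CPM and in FPKM.

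Scarb2 (ENSMUSG00000029426, chromosome 5, 92589173 to 92654692, minus strand) encodes LIMP-2, an abundant lysosomal membrane protein that carries β-glucocerebrosidase to the lysosome, and it fell. The TGF-β1 libraries were at 268 at the lowest, 281 at the median and 299 at the highest CPM, and the hemin libraries were at 245, 249, 254, 247 and 242 CPM (log2 fold change -0.19, SE 0.04, adjusted p = 0.00293). No library crossed the gap, and the fall was called in every alternative tried. Laptm5, a lysosomal membrane protein of blood cells, was at 2920.1 at the lowest, 3123 at the median and 3402 at the highest CPM with TGF-β1 alone and 3319, 3153, 3416, 3591 and 3496 CPM with hemin (log2 fold change 0.11, 95% interval 0.00 to 0.22, adjusted p = 0.175). Lamp1, the major protein of the lysosomal coat, was at 2071 at the lowest, 2141 at the median and 2229 at the highest CPM and, with hemin, at 2181, 2027, 2413, 2219 and 2255 CPM (log2 fold change 0.05, 95% interval -0.05 to 0.16). The groups overlapped for both. Lamp2, needed for fusion of autophagosomes with lysosomes, was at 511 ± 20.3 and 519.5 ± 23.0 CPM. Npc1, the membrane cholesterol exporter, averaged 285 ± 20.6 CPM with TGF-β1 alone and 317 ± 17.4 CPM with hemin (log2 fold change 0.16, 95% interval 0.04 to 0.27, adjusted p = 0.0786).

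**Figure D5:**
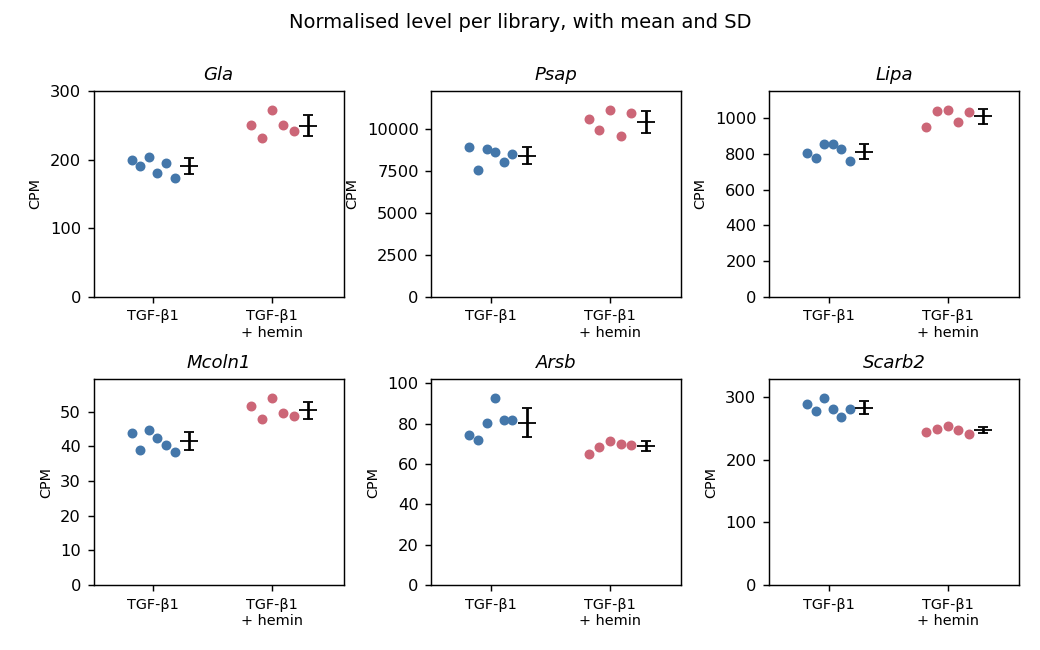
CPM (y axis, from 0) in each of 6 TGF-β1 and 5 hemin libraries for Gla, Psap, Lipa, Mcoln1, Arsb and Scarb2, with the mean and SD beside the points. The hemin libraries of Gla, Psap, Lipa and Mcoln1 lie above all TGF-β1 libraries, those of Arsb and Scarb2 below.

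Sorted by substrate, a grouping made after the values had been seen and in which a gene may appear more than once, 5 of 10 members of sphingolipid breakdown rose (Gla, Neu1, Arsa, Psap and Smpd1). Of the 9 that act on glycosaminoglycans, Ids rose and Arsb fell. The median log2 fold changes were 0.19 and 0.09. Among 5 members that trim glycoproteins, Neu1 and Fuca1 rose. Of all 36 members, 36.1% rose and 5.56% fell. Among tested genes at least as abundant as the lowest member, 14.7% rose and 7.4% fell. Whether the substrate groups differ from each other or from these shares was not tested.

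Other lysosomal genes are given for comparison, from lists drawn up from textbook knowledge but with earlier results of these data known. Of 29 tested further hydrolases and related luminal proteins, 9 rose and 1 fell (median log2 fold change 0.17). That is 34.5% called, against 14.2% of all tested genes. Creg1, a lysosomal glycoprotein without known enzyme activity, went from 414 ± 35.2 to 769 ± 72.8 CPM (log2 fold change 0.89, SE 0.07, adjusted p = 2.03e-07). Pld4, an exonuclease, reached 413 ± 20.9 CPM with hemin, against 326 ± 16.3 CPM (log2 fold change 0.34, SE 0.05, adjusted p = 0.000123). The fall was Arsg, a heparan sulfatase, from 6.53 ± 0.513 to 4.82 ± 0.691 CPM (log2 fold change -0.44, SE 0.12, adjusted p = 0.0205).

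Further membrane and associated proteins rose for 18 of 37 tested members and fell for 1 (median log2 fold change 0.18). That is 51.4% called, against 14.2% of all tested genes. For tested genes at least as abundant as the lowest of the 36, the shares were 14.7% higher and 7.4% lower. Slc11a1, the divalent metal transporter NRAMP1 of macrophage phagosomes, had the strongest evidence, from 186 ± 12.5 to 521 ± 21.1 CPM (log2 fold change 1.48, SE 0.05, adjusted p = 1.94e-11). Mcoln2, a channel related to Mcoln1, went from 9.88 ± 1.15 to 23.0 ± 1.36 CPM (log2 fold change 1.22, SE 0.09, adjusted p = 7.64e-08). Cd164, a sialomucin of endosomes and lysosomes, was the fall, from 513 ± 25.8 to 429 ± 13.6 CPM (log2 fold change -0.26, SE 0.05, adjusted p = 0.000906). Against these, no change among the 36 members exceeded 0.39 on the log2 scale. Called higher were 8.43% of all tested genes and 14.7% of those at least as abundant as the lowest member. Of 14 genes of mannose 6-phosphate tagging, sorting and sulfatase activation, 2 rose (14.3%, close to the second share and above the first). They were M6pr, the cation-dependent mannose 6-phosphate receptor, from 357 ± 13.3 to 419 ± 22.0 CPM, and Sort1, which encodes the sorting receptor sortilin, from 273 ± 19.7 to 307 ± 13.2 CPM (log2 fold change 0.23 and adjusted p = 0.00229 for M6pr, 0.17 and 0.0449 for Sort1). Of 17 tested regulators around TFEB and mTORC1, 4 rose and 1 fell, so 29.4% were called, where 14.2% of all tested genes were. Among tested genes at least as abundant as the lowest member, 14.7% were called higher and 7.4% lower. Tfeb, an E-box factor of lysosomal genes, stood at 37.4 ± 3.84 CPM without and 45.5 ± 1.90 CPM with hemin (log2 fold change 0.28, SE 0.07, adjusted p = 0.00849). Its relative Mitf went from 21.0 ± 2.17 to 25.5 ± 2.09 CPM (log2 fold change 0.28, SE 0.08, adjusted p = 0.0359). Both were named after their values were seen. Lamtor3, part of the Ragulator scaffold of mTORC1, and Bhlhe41, an E-box repressor, had log2 fold changes of 0.32 and 0.32 (adjusted p = 0.000427 and 0.00476). Bhlhe40, the paralog of Bhlhe41, went the other way, from 175 ± 7.62 to 141 ± 3.21 CPM (log2 fold change -0.31, SE 0.04, adjusted p = 6.22e-05). Tfe3, named after its value was seen, did not pass (log2 fold change 0.09, adjusted p = 0.259).

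Macrophage markers were abundant in every library, with a summed level of 3972 to 5934 FPKM over 8 genes with TGF-β1 alone and 4812 to 5631 FPKM with hemin. Adgre1, Cd68 and Cd14 of these 8 rose, and Cd68, itself a lysosomal membrane protein, is also in the membrane list above. The 6 general renal epithelial markers summed to 6.70 to 12.5 FPKM with TGF-β1 alone and 2.92 to 6.49 FPKM with hemin, where Cdh1 and Krt19 fell, and proximal tubule markers summed to at most 1.25 FPKM over the 6 of 8 genes in the table. Fibroblast markers, 6 of 7 in the table, summed to 17.3 to 51.0 and 13.1 to 23.6 FPKM. Erythroid markers, 5 of 6 in the table, ran from 0.123 to 94.2 and from 0.263 to 256 FPKM. Neutrophil, dendritic cell, endothelial and osteoclast markers summed to at most 8.27, 57.2, 4.92 and 66.0 FPKM, and T and NK cell, B cell and mast cell markers to at most 0.487, 0.586 and 0.0611 FPKM. For dendritic cells nearly all of this came from Itgax, and for osteoclasts most came from Acp5, both also expressed by macrophages. Of the osteoclast markers Ctsk, a collagen-degrading cathepsin, rose from 7.97 ± 1.29 to 17.0 ± 3.16 CPM and Mmp9, a gelatinase, fell from 8.43 ± 2.51 to 4.27 ± 2.17 CPM (log2 fold changes 1.09 and -0.98, adjusted p = 2.83e-05 and 0.0439). Acp5 itself did not pass (log2 fold change 0.10, adjusted p = 0.307). The part of epithelial, fibroblast, erythroid or osteoclast RNA in the changes of lysosomal genes was not tested.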

How the data were processed

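RNA-seq was analysed from bone marrow-derived macrophages in 6 libraries with TGF-β1 and 5 with TGF-β1 and hemin. Raw counts per gene were deposited by the authors in 1 table, per the file headers, with FPKM beside them, which the authors scaled by transcript length and depth. Build GRCm39, HISAT2 2.2.1, StringTie 2.1.6, DESeq2, FastQC 0.11.9 and cutadapt 1.9 appear without roles in the submitters' processing notes. Neither annotation release nor strand setting of the counting is stated there, so reads of overlapping genes on opposite strands may be mixed.

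Counts were tested in R 4.3.3 with edgeR 4.0.16 (TMM, filterByExpr with a minimum count of 10, quasi-likelihood test, Benjamini-Hochberg adjustment over 15132 of 25121 genes, threshold 0.05), without the replicate number as a block. Alternatives used DESeq2 1.42.0, limma 3.58.1 on log2(FPKM + 1) or log2(FPKM + 0.1), other scalings and filters, the block, and each library left out in turn. Per-library values are given for called members, for the most abundant member of each role and for the 3 most abundant of all 36. Each comparison list gives at most 2 names a direction, those with the smallest adjusted p. The exceptions are Tfeb, Mitf and Tfe3, which were named after their values were seen. The members and lists were chosen with earlier results of these data known. No libraries looked like duplicates: over 25 pairs within a group, the chi-square per degree of freedom ran from 26.7 to 188. TGF-β1 replicate 2 stood apart, since its pairs gave 99.8 to 188 and no other pair exceeded 71.1.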

Additional observations from a re-analysis of the deposited data

Results flagged for a closer look

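In each group of 4 to 10 libraries, the lowest or highest library was marked where its gap to the next exceeded Dixon's 95% critical value. Of 76 groups looked at, 4 were marked, and chance marks about 1 in 20. Dnase2a was at 119 CPM in hemin replicate 3, where the other hemin libraries lay between 145 and 154 CPM. Ppt1 was at 121 CPM in hemin replicate 2, and the others lay between 135 and 137 CPM. Smpd1 was at 28.6 CPM in TGF-β1 replicate 5, against 36.1 to 40.5 CPM in the rest of its group. The 36 members summed to 2.02% of counts in TGF-β1 replicate 2, against 2.26 to 2.39% in the other TGF-β1 libraries. Without that library edgeR called 13 members higher and 2 lower (8.31% and 6.16% of all tested genes). The members' median log2 fold change was then 0.10.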

How the results depend on the processing

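All 15 called members kept their direction in all 23 alternatives, and Gla, Gaa, Fuca1, Lipa, Acp2, Cln3 and Scarb2 kept their call in each. With library totals alone the median log2 fold change of the members was 0.0053 and 3220 genes were called. The values of Hexa (-0.080), Galns (-0.029), Ctsa (-0.060), Lamp1 (-0.061) and Laptm5 (-0.0031) turned negative. Naglu, Manba, Pla2g15, Dnase2a, Gm2a and Lamp2 also turned negative there, and in the 3 limma fits described next. With limma on log2(FPKM + 1), on log2(FPKM + 0.1) or without a filter, the median was 0.012, and Hexa (-0.068, or -0.069 with 0.1), Galns (-0.023), Ctsa (-0.051) and Lamp1 (-0.056) turned negative; without the filter 8 members were called, 6 of them higher, the calls of Psap, Neu1 and Mcoln1 being lost in that fit only (adjusted p = 0.197, 0.0760 and 0.0629). The members' median lay 0.098, 0.114 and 0.027 above that of all tested genes in these 3 fits, against 0.12 with edgeR and TMM. Over all its genes, limma without the filter called 2.64% higher and 6.51% lower. At an adjusted p under 0.01, 1295 genes were called, 5.46% of all tested genes higher and 3.1% lower. At that threshold 10 members were higher and 1, Scarb2, was lower, and the calls of Arsb, Ids, Smpd1 and Tpp1 were lost. Leaving out 1 library at a time gave 14 to 16 called members, 12 to 14 higher and 2 to 2 lower, a median of 0.10 to 0.14, and 1704 to 2169 genes called over the table. DESeq2 called 14 members higher and 2 lower, and over all tested genes 9.17% higher and 7.73% lower. With the replicate number as a block, 11 members were higher and 2 lower and 1532 genes were called in all, the calls lost being those of Smpd1 (adjusted p = 0.0652) and Tpp1 (adjusted p = 0.0675); deviations of same-numbered libraries correlated between -0.15 and 0.14 over 5 pairs, 2 of them above 0.1, and 2 libraries matched best with their own number, so the numbers were not taken as pairing the samples. Gusb gained a call with DESeq2 and without hemin replicate 3, and Npc1 without TGF-β1 replicate 4. For the 8 uncalled members given only by level or range, log2 fold changes ran from -0.16 to 0.16 over the alternatives, and 30 of 184 values changed sign. The lowest count of any member in any library was 2127 reads.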

Other observations

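Among the 6 TGF-β1 libraries, replicates 4, 5 and 6 were the 3 lowest for 3 members (Cln3, Dnase2a and Neu1) and the 3 highest for 7 (Arsb, Ctsa, Glb1, Gm2a, Hexa, Ids and Man2b1). The share of all tested genes split this way was not computed, so the pattern cannot be called particular to these members. TGF-β1 replicates 4 to 6 also had TMM factors of 1.05 to 1.06, against 0.994 to 1.03 in replicates 1 to 3. Ferritin genes took 2.84 to 2.92% of their counts, against 3.16 to 3.43%. Mitochondrial genes took 7.01 to 8.01%, against 8.14 to 9.15%. The main fit has no term for this split. For Neu1, which encodes the lysosomal sialidase, replicates 4 to 6 lay between 108 and 119.9 CPM, and replicates 1 to 3 between 133 and 142 CPM. For Hexa, the α subunit of β-hexosaminidase, replicates 4 to 6 lay between 503 and 559.7 CPM, and replicates 1 to 3 between 448 and 474 CPM. The labels name no batch that would set these libraries apart, and the pattern was noticed after the values were seen.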
